A study of Mus musculus with 16 samples.

Results

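The comparison described here is that of 2208L tumors given IACS-70654 together with anti-PD-1 (combination) against 2208L tumors given IACS-70654 alone, and it addresses what anti-PD-1 adds to the drug. Cells with more than 200 and fewer than 6000 detected genes and at most 10% mitochondrial UMIs were kept, which left 5064 of 5343 barcodes in the combination library and 4739 of 4887 in the IACS-70654 library. These 9803 cells were part of 13830 kept cells in 4 tumor libraries, in a series of 16 samples. The other tumor libraries, from mice given vehicle (1974 kept cells) and anti-PD-1 alone (2053 kept cells), served to set the difference made by anti-PD-1 with the drug beside that without it.

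2208L is a Trp53-null mammary tumor of the BALB/c background, and pieces of it were implanted into the mammary fat pads of WT female BALB/c mice aged 7 to 8 weeks, so that the hosts of all 4 groups were immune-competent. IACS-70654 was given on a 3-days-on, 2-days-off schedule and tumors were taken after 7 days of treatment. Live cells of 3 mice per condition were pooled and make up 1 library. No difference below therefore has a replicate check, and no test between conditions was possible. The antibody schedule and any isotype antibody in the other groups are not given by the labels for these libraries. The paper's methods state that anti-PD-1 and an isotype antibody were given every 3 days, without naming these libraries.

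PD-1 is an inhibitory receptor of activated T cells, and its ligand PD-L1, encoded by Cd274, is induced by interferon gamma on tumor and myeloid cells. Antibodies to PD-1 block this contact and can release cytotoxic T cells, whose interferon gamma then raises MHC class I, guanylate-binding proteins and the chemokines CXCL9 and CXCL10 in neighboring cells. IACS-70654 binds the bromodomain of the acetyltransferases CBP and P300, which act as coactivators at enhancers.

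The libraries were alike in depth. Median UMIs per kept cell were 6332 with IACS-70654 and 6308 with the combination, against 5120.5 with vehicle and 4724 with anti-PD-1 alone. No barcode was shared between tumor libraries (0), but demultiplexing of tagged conditions can give this by itself, so it is no check. Of the barcodes left out, 111 and 220 had too many mitochondrial UMIs. Each cell was assigned to a class by fixed marker genes. In each of the 6 classes compared below by gene level, the class's own markers were among the 10 leading genes. This follows from the assignment by these markers and is no check of it, and it was not examined in the rarer classes. Cells with markers of a second lineage were kept apart as mixed, 250 (5.28%) and 268 (5.29%), mainly macrophage with tumor markers (93 and 91 cells), while neutrophil with tumor markers made up 13 and 42 cells. Trp53 was read in tumor cells at 66.3 and 63.5 CPM (UMIs of a gene scaled to the UMIs of all genes in the class), but 3' reads do not show whether the deleted part of the gene was transcribed, so this is no check of the model.

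Tumor cells made up more of the combination library, and macrophages less. Tumor cells were 688 of 4739 cells with IACS-70654, or 14.5% (95% exact binomial interval 13.5% to 15.6%), and 1066 of 5064 with the combination, or 21.1% (19.9% to 22.2%), a 1.45-fold difference in share. Macrophages, which take up dying cells and present antigen, were 64.9% (3075 cells) and 56.9% (2882 cells), a log2 ratio of -0.19 (-0.26 to -0.12). Among immune cells only, macrophages were 82.7% and 79.3%, a log2 ratio of -0.061, so the difference was smaller when tumor cells were left out of the total. Anti-PD-1 without the drug went the same way, with tumor cells at 17.2% in vehicle and 21.9% in anti-PD-1 (log2 ratio 0.35, 0.14 to 0.56) and macrophages at 36.8% and 28.0% (-0.40, -0.56 to -0.24). All intervals cover counting error only and not the spread between mice or between dissociations.

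T and NK cells, the class that holds the T cells on which PD-1 blockade acts, were few in both libraries, with 71 cells or 1.50% (1.17% to 1.89%) with IACS-70654 and 107 cells or 2.11% (1.73% to 2.55%) with the combination. The share was 1.41-fold higher with the combination, a log2 ratio of 0.50 (0.05 to 0.95). The size of the difference depended on the denominator. Among immune cells the shares were 1.91% (1.49% to 2.40%) and 2.94% (2.42% to 3.55%). Per 100 macrophages the counts were 2.31 and 3.71, whereas per 100 tumor cells they were 10.3 and 10.0. Marker UMIs of T and NK cells, summed over all kept cells, were not higher with the combination, at 84.9 CPM (81.9 to 87.9) and 81.4 CPM (78.7 to 84.2). Of these UMIs, 1166 of 3105 and 1698 of 3318 lay in cells assigned to the class. Without the drug, T and NK cells were 3.55% in vehicle and 4.82% in anti-PD-1, a log2 ratio of 0.44 (-0.01 to 0.91).

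Neutrophils, short-lived phagocytes that can suppress T cells in tumors, were rarer in both libraries with the drug than in those without it. They were 22.7% in vehicle and 26.4% in anti-PD-1, against 4.85% (230 cells) with IACS-70654 and 5.88% (298 cells) with the combination. The log2 ratio of combination over IACS-70654 was 0.28 (0.02 to 0.53), and among immune cells the shares were 6.19% (5.43% to 7.01%) and 8.20% (7.33% to 9.14%). Neutrophils per 100 macrophages were 7.48 and 10.3 with the drug, and 61.7 and 94.3 without it. Neutrophil marker UMIs, summed over all kept cells, were not higher with the combination, at 720.6 CPM (712 to 729) with IACS-70654 and 712.2 CPM (704 to 720) with the combination. Monocytes, the blood-derived precursors of tumor macrophages, differed little, at 4.98% and 5.13% (log2 ratio 0.04, -0.22 to 0.30). Dendritic cells, which prime T cells, were 104 and 85 cells, or 2.19% and 1.68% (-0.39, -0.82 to 0.04). Of the rare classes, endothelial cells were 18 and 35, fibroblasts 28 and 30, and B cells 1 and 2. No mast cell or basophil was found in either library (0 of 4739, interval to 0.0778%, and 0 of 5064, to 0.0728%).

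**Figure D1:**
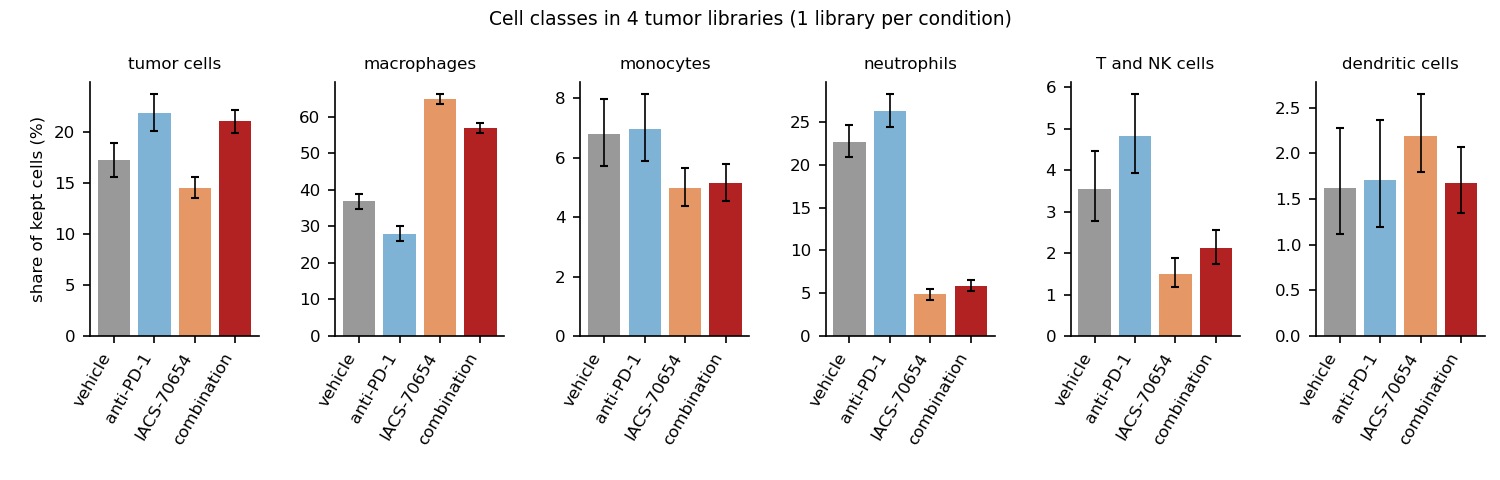
Share of kept cells (y axis, %) of 6 cell classes in the 4 tumor libraries; bars are shares and error bars 95% exact binomial intervals (counting error only). Tumor cells were 14.5% with IACS-70654 and 21.1% with the combination, and neutrophils were 4.85% and 5.88% against 22.7% and 26.4% without the drug.

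Gene levels were compared as CPM of the UMIs summed over the cells of a class, for genes with at least 100 UMIs in both libraries together, and a gene was counted as past the fold where the log2 ratio of combination over IACS-70654 was above 0.5 or below -0.5. The intervals are exact conditional ones for the ratio of counts. In tumor cells, 2.06% of 10294 tested genes were past the fold upward and 1.09% downward, with a median log2 ratio of -0.01.

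Cell-cycle genes stood out in tumor cells. Of 26 listed G2/M genes 22 reached 100 UMIs, of which 10 were past the fold upward and 0 downward, with a median log2 ratio of 0.47, and of 22 tested genes of 26 in the S-phase list, 8 were upward and 0 downward, with a median of 0.35. Rrm2, the regulatory subunit of ribonucleotide reductase, was at 8.10 CPM with IACS-70654 and 21.0 with the combination, a log2 ratio of 1.37 (1.02 to 1.74). Ube2c, which tags mitotic cyclins for destruction, was at 15.6 and 37.1 CPM (1.25, 1.00 to 1.51). Top2a, the replication-linked topoisomerase, was at 18.3 and 33.6 CPM (0.87, 0.63 to 1.12). Cyclin A2 (Ccna2) had a log2 ratio of 1.06 and the mitotic kinase Cdk1 of 0.65, whereas Mki67, a marker of cycling cells, was at 0.22 (-0.03 to 0.47) and the mitotic genes Ccnb2 and Tpx2 were at -0.17 and -0.22. The list was thus not uniformly higher.

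The share of cells with such genes was less distinct than the sums. With every tumor cell thinned to 5000 UMIs, cells with at least 5 of 26 G2/M genes were 24 of 660, or 3.64% (2.34% to 5.36%), with IACS-70654 and 50 of 996, or 5.02% (3.75% to 6.57%), with the combination. For S phase they were 31 (4.70%, 3.21% to 6.60%) and 69 (6.93%, 5.43% to 8.69%). Both pairs of intervals overlapped. The rule for these shares was set after the values of the lists were seen. Without the drug, the G2/M shares were 1.23% in vehicle and 3.70% in anti-PD-1, and the S-phase shares 3.70% and 3.94%.

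Interferon-responsive genes were higher in combination tumor cells as groups, with modest ratios. Of 26 tested genes of 29 in the type I interferon list, 25 had a ratio above 0 and 5 were past the fold upward, with a median of 0.29. Ifit3, an interferon-induced antiviral protein, was at 55.3 and 92.8 CPM (0.75, 0.61 to 0.89), and Ifit2 of the same family at 40.7 and 65.8 CPM (0.69, 0.53 to 0.86); Ifit3 and its near-identical copy Ifit3b (0.72) may share reads. Ifi27l2a was the exception, at -0.31. Of 19 tested interferon gamma-inducible genes of 25 listed, 18 were above 0 and 5 were past the fold upward, with a median of 0.39. Cd274, encoding PD-L1, was at 16.1 and 30.2 CPM (0.91, 0.65 to 1.17), and Iigp1, an interferon-induced GTPase, at 156 and 239.8 CPM (0.62, 0.54 to 0.71).

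MHC class I genes followed with a smaller difference. Of 23 tested genes for MHC class I and peptide loading, 18 were above 0 but only 2 were past the fold, H2-M3 (0.64) and H2-Q7 (0.57), with a median of 0.25. H2-K1, a classical heavy chain, was at 842 and 1081 CPM (0.36, 0.32 to 0.40), H2-D1 at 2171 and 2675 CPM (0.30, 0.28 to 0.32) and the light chain B2m at 1793 and 2102 CPM (0.23, 0.20 to 0.26). The chaperone Calr was at -0.14. Reads of the closely related H2 genes cannot always be told apart. MHC class II genes went the other way, with all 7 tested genes of 12 listed below 0, 1 past the fold downward (H2-Eb1, 23.2 and 15.1 CPM, -0.62, and -0.49 without the highest cells) and a median of -0.31, which was 0.00497 where cells needed 5 markers of a list to be assigned. Macrophage marker UMIs in the tumor class, a sign of macrophage RNA in these cells, were 174 and 193 CPM. Markers of type 2 dendritic cells, which include the MHC class II gene H2-DMb2, were at 11.4 and 8.11 CPM. Monocyte markers were at 171 and 146 CPM. Most of these UMIs were of Fn1, also in the EMT and matrix list, with 1491 of 1755 and 1981 of 2305 even without its highest cells. The monocyte list therefore mainly reads Fn1 in this class and is no clear measure of monocyte RNA. The part of macrophages, monocytes and dendritic cells in the MHC class II result was not tested.

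Cxcl9, a chemokine that draws CXCR3-bearing T cells, showed the sum and the share of cells pointing in opposite directions. Its level in tumor cells was 77.5 CPM with IACS-70654 and 59.1 with the combination (-0.39, -0.53 to -0.25), but a single IACS-70654 cell held 196 of the 795 UMIs and another 158, and the ratio was -0.07 without the highest cell in each library. After thinning to 5000 UMIs, Cxcl9 was found in 19 of 660 cells, or 2.88% (1.74% to 4.46%), and in 60 of 996, or 6.02% (4.63% to 7.69%). Cd274 was found in 23 cells, or 3.48% (2.22% to 5.18%), and 64 cells, or 6.43% (4.98% to 8.13%). Without thinning, the shares were 4.80% and 8.72% for Cxcl9 and 8.72% and 10.7% for Cd274. Thinned tumor cells without the drug held Cxcl9 in 0.617% (vehicle) and 0.231% (anti-PD-1), and Cd274 in 3.40% and 2.78%. Unthinned, Cd274 was found in 6.18% (vehicle) and 6.22% (anti-PD-1), and its level there was 7.04 and 6.26 CPM, lower than with IACS-70654 alone. Tumor cells with at least 3 of Ifit2, Ifit3, Isg15 and Rsad2 after thinning to 2000 UMIs were 22 of 685, or 3.21% (2.02% to 4.82%), and 54 of 1058, or 5.10% (3.86% to 6.61%), and 0 of 333 (interval to 1.10%) and 0 of 447 (to 0.822%) in vehicle and anti-PD-1. Unthinned, they were 60 of 688 and 139 of 1066, against 4 of 340 in vehicle and 4 of 450 in anti-PD-1. The genes for these shares of cells, other than the 4 interferon genes, were picked after their values were seen.

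The 3 largest upward ratios among named genes of tumor cells were those of Cnfn, Sprr1a and Tmprss11d. Sprr1a, a cross-linked protein of the cornified envelope of squamous epithelium, was at 8.58 and 34.4 CPM (2.00, 1.68 to 2.34), Cnfn (cornifelin) at 3.02 and 14.1 CPM (2.22, 1.68 to 2.82), and the airway-type serine protease Tmprss11d at 3.90 and 14.7 CPM (1.91, 1.42 to 2.44). For Cnfn, 17 of 31 UMIs of IACS-70654 were in 1 cell, and the ratio was 3.12 without the highest cells and 2.86 with cells thinned to 1000 UMIs. These UMIs came from few cells, with Sprr1a in 12 of 688 cells and in 29 of 1066, at median depths of 14065.5 and 13821 UMIs. Krt16, a keratin of stressed and wounded epithelium, was at 42.4 and 90.2 CPM (1.09, 0.93 to 1.25). Cells with at least 2 of Cnfn, Sprr1a, Tmprss11d, Krt16 and Krt6a, a set chosen after the values were seen, were 25 (3.63%, 2.37% to 5.32%) and 53 (4.97%, 3.75% to 6.45%), against 0 of 340 (interval to 1.08%) in vehicle and 0 of 450 (to 0.816%) in anti-PD-1. The combination thus had a somewhat larger number of such cells, and counting error spans the difference in their share.

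Among 8 tested keratins of 9 listed, 1 was past the fold, with a median of 0.36. The luminal keratins Krt8 and Krt18 were at 1303 and 2133 CPM (0.71) and at 2154 and 3045 CPM (0.50), and the basal keratin Krt14 at 442 and 512 CPM (0.21). The share of cells with Krt14 went the other way, at 17.6% (14.8% to 20.6%) and 13.9% (11.9% to 16.1%). After thinning to 5000 UMIs it was 11.8% (9.45% to 14.5%) and 9.64% (7.88% to 11.6%). Several keratins, Krt8, Krt18 and Krt14 among them, were also markers used to assign cells to the tumor class, so that their levels describe the class and are not independent of it.

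Other named genes of tumor cells were single items. Cryab, a small heat shock protein, was at 19.4 and 53.7 CPM (1.47, 1.24 to 1.70), but 1 combination cell held 385 of 847 UMIs, and without the highest cell in each library the ratio was 0.67. Lmcd1, a LIM-domain transcriptional cofactor, was at 3.71 and 10.1 CPM (1.44), still far below vehicle (90.6) and anti-PD-1 (114). Itprid1 (1.74) and the aromatic amino acid transporter Slc16a10 (1.38) were also higher. On the lower side, Ifi209 of the interferon-inducible p200 family had a ratio of -2.12 at 7.41 and 1.71 CPM (in 12 and 15 cells, with 37 of 76 IACS-70654 UMIs in 1 cell, and -0.31 with cells thinned to 1000 UMIs), AI662270 of -1.76 at 34.7 and 10.3 CPM, and the metal-binding Mt2 of -1.12 at 24.7 and 11.3 CPM. Klk6, a secreted serine protease, had a ratio of -1.46 that became -0.42 without its highest cells. The remaining named genes were Rtn1 (-1.23), Adal (-0.96) and Lockd (-0.94).

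Several gene groups in tumor cells differed little between the libraries. Of 18 tested hypoxia and glycolysis genes, 0 were past the fold upward and 1 downward (Ankrd37, -0.51, and -0.49 without the highest cells), with a median of -0.09. Of 15 tested EMT and matrix genes, 1 was past the fold (Postn, 0.57) and the median was 0.04. None of 23 immediate early and heat shock genes was past the fold (median 0.15). Neither gene of the drug's own targets was past the fold. Crebbp, encoding CBP, was slightly lower with the combination, at 165 and 143 CPM (-0.20, -0.30 to -0.11). Ep300 was at 68.9 and 63.6 CPM (-0.12, -0.26 to 0.03). Of 10 tested checkpoint ligands, Cd274 alone was past the fold (median 0.14).

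**Figure D2:**
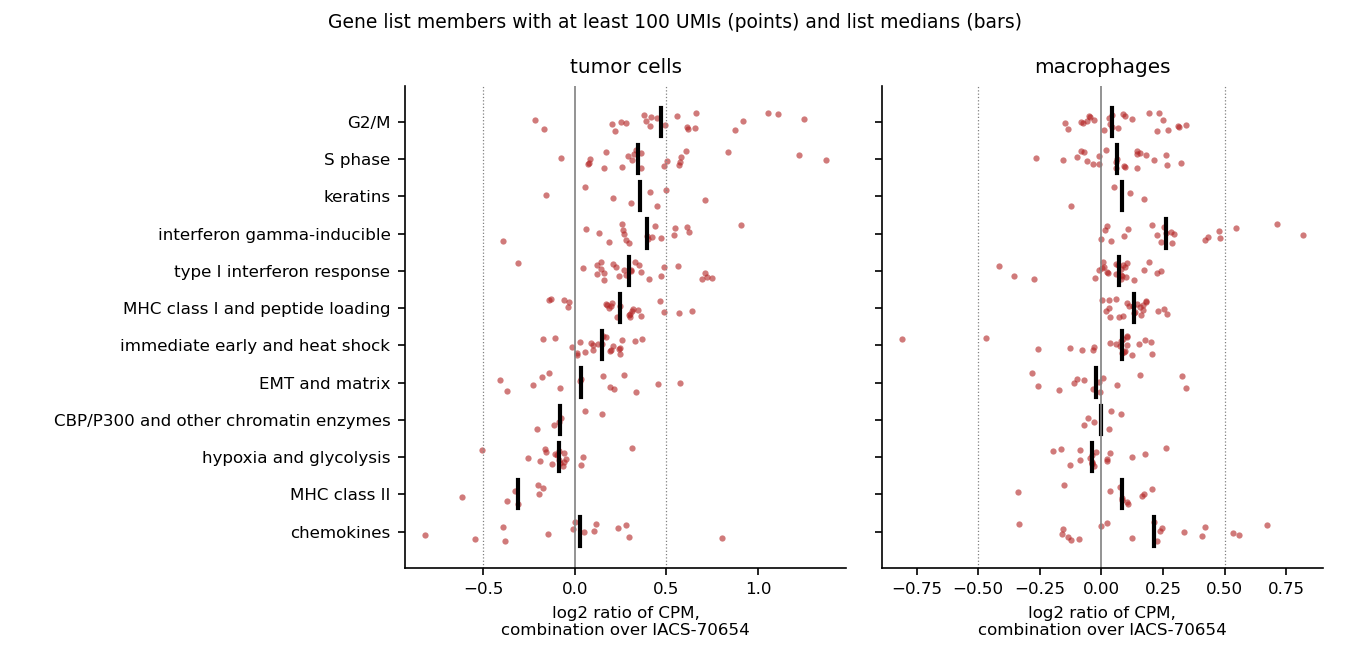
Log2 ratio of CPM, combination over IACS-70654 (x axis), for the tested members of 12 gene lists in tumor cells and macrophages; points are genes, black bars list medians and dotted lines the fold of 0.5 either way. In tumor cells the G2/M median lay at 0.47 and that of MHC class II at -0.31, whereas in macrophages the G2/M median was 0.04 and the interferon gamma-inducible median 0.26.

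In macrophages, the largest class, 0.759% of 10272 tested genes were past the fold upward and 1.14% downward, with a median of -0.01. Interferon gamma-inducible genes were the list with the highest median, at 0.26, with 20 of 21 tested genes above 0, 3 past the fold upward and 0 downward. Gbp4, a guanylate-binding protein of cell-autonomous defense, was at 18.9 and 33.3 CPM (0.82, 0.63 to 1.01), and the protease inhibitor Serpina3g at 24.5 and 40.2 CPM (0.71, 0.55 to 0.88). Tgtp2, a GTPase that may share reads with its copy Tgtp1, was the third (0.54). Cxcl9 was at 43.7 and 58.4 CPM (0.42, 0.29 to 0.55), while Cxcl10 was at 193 CPM in both (-0.00, -0.07 to 0.06).

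Chemokines had the next highest median of the immune lists, with 3 upward and 0 downward of 19 tested and a median of 0.21, which was 0.033 with cells thinned to 1000 UMIs. Ccl8 was at 1119.8 and 1649 CPM (0.56, 0.53 to 0.58) and Ccl12 at 674 and 977 CPM (0.54, 0.50 to 0.57). Both are monocyte-attracting CC chemokines, and Ccl7 of the same gene cluster was at 419 and 556 CPM (0.41, 0.37 to 0.45). Cxcl13, which attracts B cells, was at 33.6 and 53.5 CPM (0.67, 0.53 to 0.81). Not all moved this way, with Cxcl14 at 118 and 93.5 CPM (-0.33).

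Antigen-presentation and type I interferon groups of macrophages lay close to the level of all genes. All 23 tested MHC class I genes were above 0, but 0 were past the fold and the median was 0.13. For MHC class II the median was 0.08 over 11 genes, with Cd74 at 6809 and 6979 CPM. Of 26 tested type I interferon genes 0 were past the fold (median 0.07), and Rsad2 (-0.36) and Cmpk2 (-0.42) were lower. Macrophages and monocytes with at least 3 of the 4 interferon genes at 2000 UMIs, termed IFN-response TAMs, were 199 of 3194, or 6.23% (5.42% to 7.13%), and 220 of 3024, or 7.28% (6.37% to 8.26%), against 0 of 33 (interval to 10.6%) and 3 of 58 T and NK cells; without thinning the shares were 16.1% and 16.6%. Without the drug they were 3.41% in vehicle and 6.74% in anti-PD-1.

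Genes of macrophage polarization did not move together. Of 15 tested genes of alternatively activated and lipid-associated macrophages, 2 were past the fold upward and 0 downward (median -0.03), with Arg1, the arginine-depleting enzyme, at 101 and 98.7 CPM and the mannose receptor Mrc1 at 349 and 410.3 CPM (0.23). Mrc1 was also a marker used to assign macrophages. Retnla had the largest ratio of the class, 4.77 (0.488 and 13.3 CPM), but it was found in 6 and 4 cells and 1 combination cell held 225 of 246 UMIs, without which (and the highest IACS-70654 cell) the ratio was 1.73. Of 12 tested inflammatory genes, 1 was past the fold downward, Il12b, a subunit of IL-12 and IL-23, at 11.9 and 2.32 CPM (-2.36, -2.86 to -1.89). It was found in 20 of 3075 and 22 of 2882 cells, and the ratio was -1.75 without the highest cell in each library and -0.74 with cells thinned to 1000 UMIs. The top 5 cells held 88.5% of 244 Il12b UMIs with IACS-70654 and 51.2% of 43 with the combination, so few cells made up most of the higher sum. Cell-cycle genes did not share the pattern of the tumor cells, since 0 of 24 S-phase genes (median 0.06) and 0 of 25 G2/M genes (median 0.04) were past the fold.

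Among the other named macrophage genes, Vcam1, an adhesion molecule that binds lymphocyte integrins, was at 18.7 and 35.1 CPM (0.91, 0.73 to 1.10) and was detected in 248 of 3075 and 362 of 2882 cells. Coagulation factor X (F10) was at 6.54 and 13.9 CPM (1.08, 0.78 to 1.40). Rnase2a (1.41), Fggy (0.93), Enox1 (0.91), Nbea (0.91) and the basement membrane collagen Col4a1 (0.85) were higher too, all under 10 CPM. On the lower side were Mtus2 (-1.69), Mpv17l (-1.40), Chic1 (-1.07), Gcat (-1.01), Cryab (-0.96), Mrnip (-0.91) and Stxbp6 (-0.88). With cells thinned to 1000 UMIs, Vcam1 was at 0.42, Col4a1 at 0.28 and Mrnip at -0.47, none past the fold.

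Monocytes were compared over 236 and 260 cells, with 3.12% of 3652 tested genes past the fold upward and 2.35% downward and a median of 0.00 over these genes. Arg1 had the largest ratio, at 41.5 and 170.0 CPM (2.04, 1.58 to 2.52), and was found in 12 (5.08%) and 35 (13.5%) cells, against 3 of 230 and 2 of 298 neutrophils (median depth 4545.5 and 4667.5 UMIs in monocytes, 1352.5 and 1206.5 in neutrophils). In vehicle and anti-PD-1 monocytes it was at 177 and 268 CPM, so the combination lay near the vehicle level. Ccl12 was at 141 and 377 CPM (1.42, 1.16 to 1.68). Ly6c2, the surface protein of classical monocytes and a marker used to assign the class, was at 85.6 and 199 CPM (1.22), below 692 in vehicle and 862 in anti-PD-1. Cd274 was at 39.7 and 76.1 CPM (0.94, 0.42 to 1.48).

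As groups, 5 of 16 tested chemokines of monocytes were past the fold upward and 0 downward (median 0.30). Among them were Cxcl1 (0.79), Cxcl14 (0.76) and Pf4 (0.80, and 2.51 without the highest cells, with 9 and 61 UMIs left). Pf4 was also a marker used to assign macrophages. Ccl3 and Ccl4 were at -0.40 and -0.38. Of 12 alternatively activated and lipid-associated genes, 2 were upward, Arg1 and Spp1 (osteopontin, 0.54), and 1 downward, the heme oxygenase Hmox1 (113 and 62.8 CPM, -0.85), with a median of 0.36. For Hmox1, 47 of 128 UMIs of IACS-70654 were in 1 cell, and the ratio was -0.49 without the highest cells. Among 13 hypoxia and glycolysis genes, 11 were above 0 and the median was 0.31, with Bnip3 (0.61) and Ndrg1 (0.53) upward and the oxidoreductase Ero1l (-0.62, but -0.21 without the highest cells) downward. Of 14 tested interferon gamma-inducible genes 4 were upward, Cd274, Iigp1 (0.76), Gbp4 (0.74) and Irf8 (0.60), with a list median of 0.09. Irf8 was also a marker used to assign type 1 dendritic cells. MHC class II genes were lower in part, with H2-Eb1 at 1752 and 1169 CPM (-0.58), H2-Aa at -0.36, H2-Ab1 at -0.34 and a median of -0.10 over 9 genes. Macrophage marker UMIs in the class were 2596 and 2711 CPM and those of type 2 dendritic cells 262 and 200.3 CPM. Monocytes whose score for another class came within 10% of their own were 44 of 236 and 42 of 260. Without the drug they were 10 of 134 in vehicle and 12 of 143 in anti-PD-1. The part of such RNA and such cells in the monocyte results was not tested. Other named genes were Klra2 (1.31), Apoc2 (1.15), Tbxas1 (0.92) and Arl3 (0.83) on the higher side and Arhgap25 (-1.32), the centromere histone Cenpa (-1.15), Susd3 (-1.03), the phospholipid transfer protein Pltp (-0.91), Ppp2r5e (-0.90), H2afx (-0.87) and Anxa11 (-0.83) on the lower. With cells thinned to 1000 UMIs, Apoc2 was at 0.27, Ppp2r5e at -0.02 and H2afx at -0.35, and Ppp2r5e was at -0.30 where 5 markers were needed to assign a cell.

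Neutrophils were shallow, with median depths of 1352.5 and 1206.5 UMIs, and 4.17% of 1342 tested genes were past the fold upward and 3.65% downward, with a median of 0.02. S100a8 and S100a9, the calprotectin subunits, were at 9143 and 5763 CPM (-0.67, -0.74 to -0.59) and at 18745 and 13009.6 CPM (-0.53, -0.58 to -0.47). These were the 2 of 16 tested MDSC effector genes past the fold (median -0.16), and both were markers used to assign the class, whose list came to 45318 and 34543 CPM in all. The acute-phase protein Saa3 was at 854 and 401 CPM (-1.09, -1.37 to -0.81) and the antibacterial Lcn2 at 854 and 602 CPM (-0.50). Ccl4, a CC chemokine, was at 1783 and 3253 CPM (0.87, 0.73 to 1.01) and Cxcl2, which attracts neutrophils, at 16733 and 21734 CPM (0.38). Of 7 tested chemokines 1 was upward and 2 downward, and the list's median (-0.27) and its summed UMIs (0.37) had opposite signs.

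Other neutrophil genes with ratios upward were Havcr2, the inhibitory receptor TIM-3 (123 and 245 CPM, 0.99, 0.47 to 1.54), the transcription factor Irf1 (154 and 292 CPM, 0.92) and Cd274 (120.3 and 205 CPM, 0.77, 0.22 to 1.34), beside Wfdc18 (0.91, and 2.52 where 5 markers were needed to assign a cell), Nudt4 (0.79) and Eif3f (0.78). Cd274 was found in 14.3% and 15.8% of neutrophils, against 16.3% in vehicle and 15.3% in anti-PD-1. There it had 116 of 578376 and 142 of 789466 UMIs of the class, against 43 of 357321 and 83 of 403932 with the drug. The combination thus lay near the vehicle level. Of 8 tested interferon gamma-inducible genes 2 were upward and 1, Cxcl10 (898 and 567 CPM, -0.66), downward. Of 15 tested type I interferon genes 1 was upward, Bst2 (0.58, and 0.48 without the highest cells), and 4 downward, among them Ddx60 (-0.63) and Oasl1 (-0.60), with a median of -0.20. MHC class II members tested were 5, of which 3 were upward (median 0.57), but in the IACS-70654 library 1 cell held 217 of 343 Cd74 UMIs and 69 of 98 H2-Ab1 UMIs were in 1 cell. In the combination library 5 cells held 81.2% of 628 Cd74 UMIs and 5 held 80.9% of 199 H2-Ab1 UMIs, and the share of neutrophils with Cd74 was 41.3% with IACS-70654 and 31.2% with the combination, so the higher sums came from a few cells. That median was 0.081 where 5 markers were needed to assign a cell, and 1.75 without the highest cells. Macrophage marker UMIs in the class were 896 and 837 CPM, those of type 2 dendritic cells 1010.3 and 777 CPM and those of plasmacytoid dendritic cells 84.0 and 230.2 CPM (30 and 93 UMIs), and their part in the result was not tested. Lower named genes were Dusp6 (-1.13), the endotoxin receptor Tlr4 (-0.98), Heca (-0.94), Cask (-0.89), Ccl2 (-0.84, but -0.49 without the highest cells), Arid4b (-0.83) and Ppp1r3b (-0.81).

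Among T and NK cells, those with Il17a or gamma-delta T cell receptor genes were a larger share with the combination, and cells with a CD8 transcript were few. Il17a, the cytokine of type 17 and many gamma-delta T cells, was found in 7 of 71 cells with IACS-70654, or 9.86% (4.06% to 19.3%), and in 25 of 107 with the combination, or 23.4% (15.7% to 32.5%). The gamma-delta receptor genes Trdc or Tcrg-C1 were found in 6 cells, or 8.45% (3.16% to 17.5%), and 25 cells, or 23.4% (15.7% to 32.5%). Both were seen together in 4 and 21 cells, against 2 in vehicle and 3 in anti-PD-1. As a share of all kept cells, those with Il17a were 0.148% (0.0594% to 0.304%) and 0.494% (0.320% to 0.728%). Thinned to 1000 UMIs, cells with Il17a were 7 of 66 and 23 of 102, and cells with Trdc or Tcrg-C1 were 6 and 16. The choice of Il17a and the gamma-delta genes followed from their values.

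Cd8a or Cd8b1, the genes of the CD8 coreceptor of cytotoxic T cells, were found in 6 cells, or 8.45% (3.16% to 17.5%), and in 16 cells, or 15.0% (8.80% to 23.1%), against 22.9% and 25.3% without the drug; after thinning they were 4 of 66 and 12 of 102. As a share of all kept cells they were 0.127% and 0.316%. These counts are lower limits for the subset, since a transcript is often missed at this depth, and of the cells with Foxp3 (16 and 17) only 5 and 6 also showed Cd4. Cd4 was found in 14 (19.7%) and 13 (12.1%) cells, Foxp3, the factor of regulatory T cells, in 16 (22.5%) and 17 (15.9%), and the NK genes Ncr1, Klrb1c or Eomes in 8 (11.3%) and 4 (3.74%). Pdcd1, the target of the antibody, was found in 13 (18.3%, 10.1% to 29.3%) and 24 (22.4%, 14.9% to 31.5%) cells, but after thinning in 8 of 66 (12.1%) and 11 of 102 (10.8%). Within T and NK cells the intervals overlapped for each of these subsets. In macrophages, which should lack these genes, Il17a was found in 0.423% and 0.486% of cells and Cd8a or Cd8b1 in 0.683% and 0.347%, at median depths of 6160 and 5916 UMIs against 1921 and 2122 in T and NK cells.

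**Figure D3:**
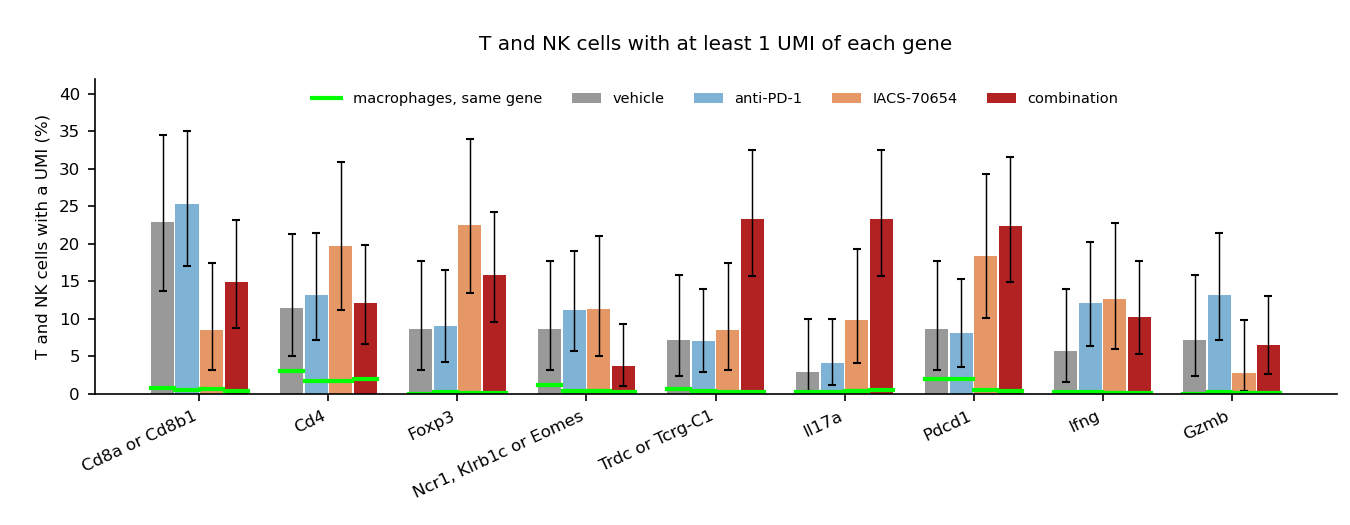
Share of T and NK cells with at least 1 UMI of each gene or gene pair (y axis, %) in the 4 tumor libraries; bars are shares, error bars 95% exact binomial intervals and green lines the share of macrophages with the same genes. Il17a was found in 9.86% of T and NK cells with IACS-70654 and 23.4% with the combination, whereas Cd4, Foxp3 and the NK genes had lower shares with the combination.

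By gene level, 6.42% of 670 tested genes in T and NK cells were past the fold upward and 4.78% downward, with a median of 0.02. Il17a was at 739 and 1679 CPM (1.18, 0.89 to 1.48), with 63 of 123 UMIs of the IACS-70654 library in 1 cell (2.03 without the highest cells). It was at 220.4 and 140.5 CPM in vehicle and anti-PD-1, where 32 of 35 and 22 of 37 UMIs were in 1 cell each. Il7r, the receptor of a survival cytokine, was at 294 and 553 CPM (0.91, 0.44 to 1.41) and the integrin Itgav at 517 and 962 CPM (0.90, 0.54 to 1.27). Also higher were Gpr183 (1.22), the phosphodiesterase Pde4b (1.22), Malt1 of receptor signaling to NF-kB (1.20) and Klf6 (1.12). Without the cells that held Il17a (64 and 82 cells left), the ratio of Klf6 was 0.23, and with cells thinned to 1000 UMIs it was 0.47.

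Nr4a1, an early gene of receptor signaling in T cells, was at 415 and 175 CPM (-1.25, -1.81 to -0.69, and -2.17 without the cells that held Il17a) and its relative Nr4a3 at 421 and 238 CPM (-0.82, -1.34 to -0.31). Cd74 had a ratio of -2.54, but 99 of 129 UMIs lay in 1 IACS-70654 cell and it was -0.51 without the highest cells, and Cst3 went likewise from -1.22 to -0.30. Dad1 (-1.20), Prkch (-0.93), Cd2 (-0.84, a marker of the class) and Cmtm7 (-0.83) were lower as well. Macrophage marker UMIs in T and NK cells were 727 and 401 CPM, and their part in these differences was not tested.

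Effector genes were at similar sums. The 17 genes of the T cell and NK effector list, 2 of them tested singly, had a ratio of their summed UMIs of 0.05 (-0.15 to 0.25), with Ccl5 at 763 and 906 CPM (0.25) and Nkg7 at 276 and 286 CPM (0.05). Nkg7 was also a marker used to assign the class, so its level is not independent of it. The 10 inhibitory receptors had 0.04 (-0.17 to 0.24), with Ctla4 at 841 and 791 CPM and Tox at 823 and 884 CPM. Regulatory T cell genes had -0.03 (-0.20 to 0.14), and naive and memory genes 0.46 (0.21 to 0.71), in which Il7r and Klf2 (421 and 624 CPM, 0.57) were both past the fold. Gzmb, encoding granzyme B, had 2 and 26 UMIs, of which 17 were in 1 cell, and all 29 Gzma UMIs of the combination were in 1 cell. Without the drug, Gzma was at 50.4 and 471 CPM and Gzmb at 69.3 and 406 CPM in vehicle and anti-PD-1, but 112 of 124 Gzma UMIs and 64 of 107 Gzmb UMIs of anti-PD-1 were in 1 cell each.

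Dendritic cells were compared over 104 and 85 cells, with 5.36% of 1474 tested genes past the fold upward and 4.14% downward, with a median of -0.02. They held 61 and 44 plasmacytoid cells, or 58.7% (48.6% to 68.2%) and 51.8% (40.7% to 62.7%), and 23 and 29 conventional type 2 cells, or 22.1% (14.6% to 31.3%) and 34.1% (24.2% to 45.2%). The others were 13 and 6 mature regulatory cells (12.5% and 7.06%) and 7 and 6 conventional type 1 cells (6.73% and 7.06%), and the intervals overlapped for each subset. Of 9 tested MHC class II genes 6 were upward (median 0.60), with H2-Ab1 at 3261 and 4943 CPM, but the median was -0.21 where 5 markers were needed to assign a cell. Within subsets the summed MHC class II genes were at 3389 and 2570.2 CPM in plasmacytoid, 58792 and 76792 in type 2, 34404 and 43206 in mature regulatory and 51411 and 51044 in type 1 cells. Ccr7 and Fscn1, genes of the migratory mature state, were at 489.8 and 139 CPM (-1.82) and at 218 and 105 CPM (-1.05). Both were also markers used to assign these cells. Within mature regulatory cells (13 and 6), Ccr7 was at 3165 and 1406 CPM but Fscn1 at 1524 (1245 to 1846) and 1406 (1013 to 1900.0) CPM. Il12b was at 486 and 47.8 CPM (-3.34), with 198 of 234 UMIs in 1 cell.

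In the same cells, Cxcl9 was at 143 and 316 CPM (1.14, 0.71 to 1.58), with 40 of 69 and 51 of 132 UMIs in 1 cell each. It was found in 5 and 11 cells, and the ratio was 1.69 without the highest cells and 5.46 where 5 markers were needed. By subset, Cxcl9 was at 630.1 and 4049.5 CPM in mature regulatory cells but at 672 and 33.4 CPM in type 1 cells, the latter from 1 UMI. In the whole class, Mgl2, a lectin of type 2 cells, was at 272 and 578 CPM (1.09, 0.78 to 1.41), but within type 2 cells at 929.9 (771 to 1112) and 1082 (933 to 1248) CPM. The Fc receptor Fcgr3 was at 72.6 and 184 CPM (1.34, 0.75 to 1.96). Of 8 tested chemokines 4 were upward and 1, Ccl5 (1479.9 and 817 CPM, -0.86), downward. Plaur (1.08), Aif1 (0.97), AY036118 (0.95, but -0.67 where 5 markers were needed and 0.18 with cells thinned to 1000 UMIs), Ripor2 (0.93) and H2-DMb2 (0.91) were the other named genes on the higher side. H2-DMb2 was also a marker used to assign type 2 cells. Those on the lower side were Cd63 (-1.23), the fatty acid carrier Fabp5 (-1.16), Rab5if (-1.11), Tbc1d1 (-0.91) and Cox17 (-0.89).

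**Figure D4:**
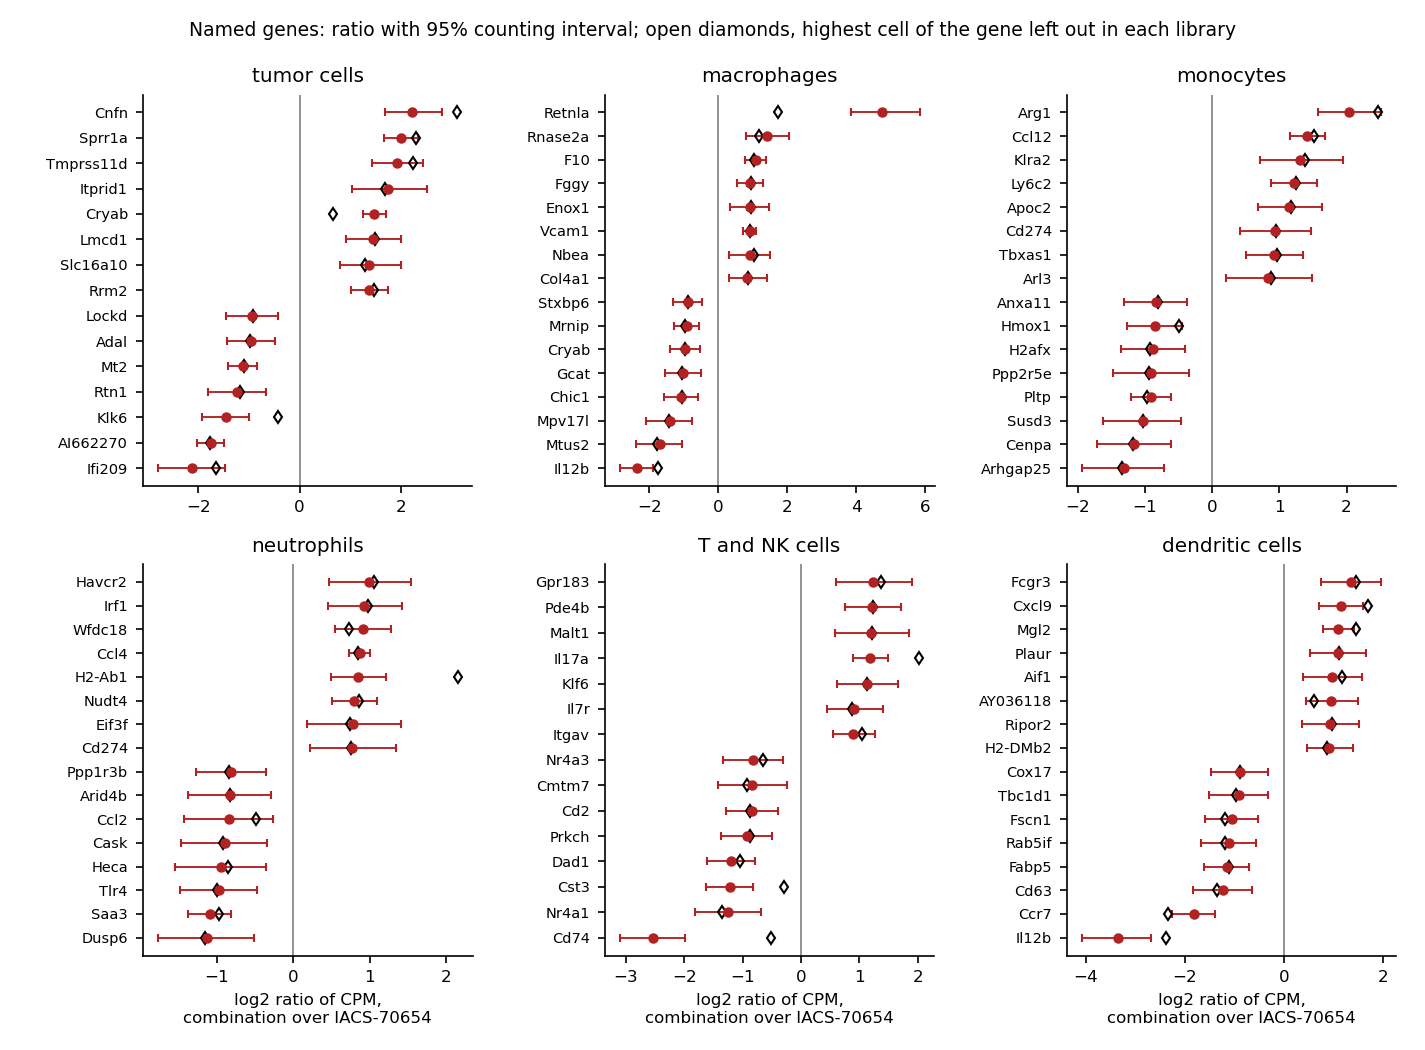
Log2 ratio of CPM, combination over IACS-70654 (x axis), for the named genes reported here in 6 cell classes; filled points are ratios, bars 95% counting intervals and open diamonds the ratio with the highest cell of the gene left out in each library. Retnla in macrophages is at 4.77 and at 1.73 without its highest cells, and Cryab in tumor cells at 1.47 and 0.67.

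Anti-PD-1 was also compared with vehicle, to set its effect without the drug beside that with it, and the 2 comparisons share no library. Over the genes tested in both, the S-phase median in tumor cells was 0.32 for combination over IACS-70654 and 0.03 for anti-PD-1 over vehicle (17 genes), and that of G2/M 0.27 and 0.20 (10 genes). Interferon gamma-inducible genes of tumor cells had 0.28 and 0.07 (11 genes), MHC class I genes 0.23 and -0.04 (21 genes), type I interferon genes 0.23 and 0.14 (17 genes), keratins 0.36 and -0.06 (6 genes) and MHC class II genes -0.32 and 0.41 (6 genes). Rrm2 was among the few single genes that were past the fold in both, with 1.37 and 1.25, although 5 cells held 82.8% of its 93 anti-PD-1 UMIs and it was found in 4.12% of vehicle and 3.78% of anti-PD-1 tumor cells. None of these differences between comparisons was tested.

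In macrophages the G2/M median was 0.04 with it and 0.62 without it (17 genes), where 12 genes were past the fold upward and 1 downward, against 2.64% and 1.16% of 7345 tested genes. Ccl8 was at 0.56 and -0.42, Ccl7 at 0.41 and -0.75, and Cxcl10 at -0.00 and 1.14.

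Genes past the fold in both comparisons were few in each class. Without the drug, 3.41% of tested genes were past the fold upward and 0.584% downward in tumor cells, where 8 of 8514 genes went the same way in both comparisons and 6 the opposite way. Macrophages had 2.64% and 1.16%, with 2 genes of 7343 going the same way and 2 the opposite way. For monocytes the background was 3.63% and 4.13%, and 6 and 4 of 1777 genes went the same and the opposite way. Neutrophils had 4.63% and 2.96%, with 6 and 4 genes of 1337. T and NK cells had 8.94% and 4.55%, with 6 and 1 of 521, Klf6 (1.12 and 1.05) among the former and Klf2 (0.57 and -0.59) the latter. Dendritic cells, of which vehicle and anti-PD-1 held 32 and 35, had 9.78% and 4.4%, with 4 and 6 of 407.

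**Figure D5:**
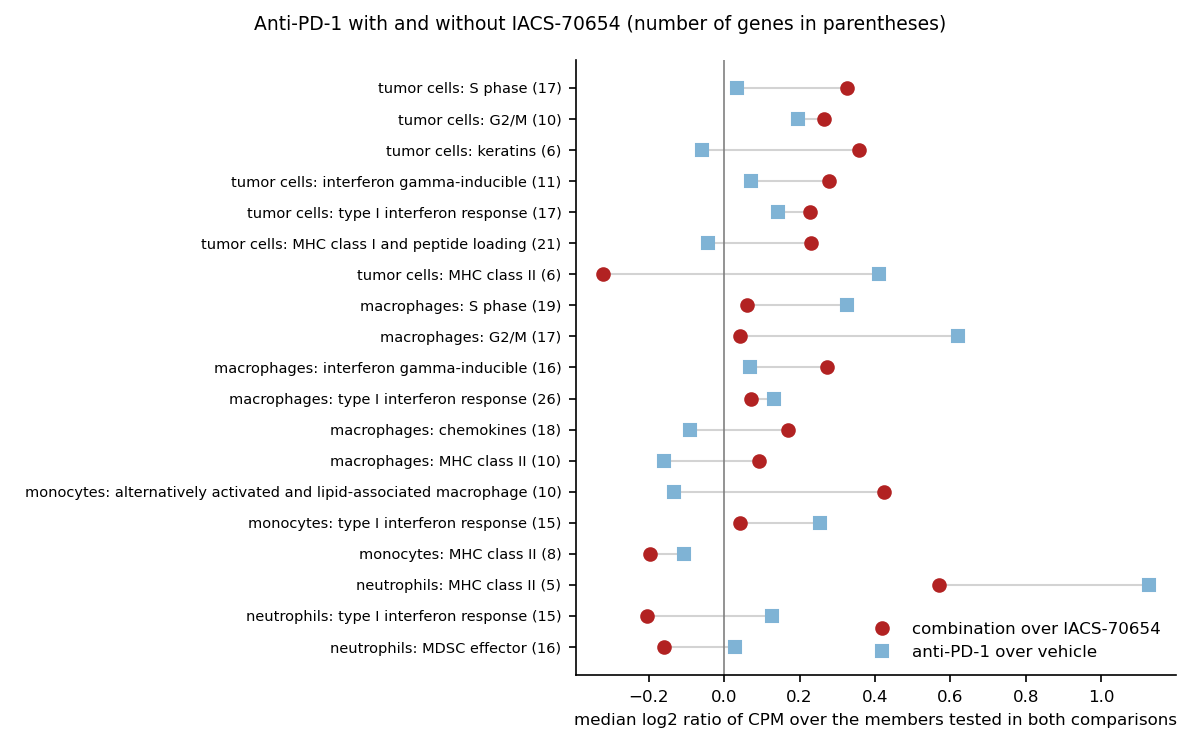
Median log2 ratio of CPM (x axis) of gene lists in 4 cell classes for combination over IACS-70654 (circles) and anti-PD-1 over vehicle (squares), over the genes tested in both comparisons. The circles lie to the right of the squares for S phase in tumor cells (0.32 and 0.03) and to the left for G2/M in macrophages (0.04 and 0.62).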

How the data were processed

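The authors sorted live tumor cells, tagged conditions with CellPlex and made 3' single-cell libraries; CellRanger multi (7.1.0 in the file headers) gave the deposited raw UMI count per gene and cell, without normalization. The submitters' notes name mm10 and Seurat. Only the 4 tumor libraries were used, 1 per condition. The cell filter is a reading of the study's. Each cell took the class of the marker list with the highest score (UMIs capped at 3 per gene, at least 3 markers detected). Cells whose second lineage scored at least 50% of the first were called mixed and left out of classes, with 3 dendritic lists exempted after the data were seen; no doublet caller and no clustering were used. UMIs were summed per class and scaled to CPM in Python (version 3.11.15, with pandas 2.3.3, scipy 1.17.1 and numpy 2.4.6); TMM scaling used edgeR 4.0.16 in R 4.3.3 as an alternative. Shares have exact binomial and ratios exact conditional 95% intervals, which cover counting error only. The ratio and share intervals were tested on simulated counts, and thinning on cells of the IACS-70654 library. The cell filter and the class assignment were not simulated. Counts were drawn independently per gene, so the test does not show how the intervals behave where 1 cell holds many UMIs. Named genes were the 8 highest and 8 lowest ratios per class among genes with at least 100 UMIs and an interval without 0, leaving out mitochondrial, ribosomal protein, Gm, Rik, hemoglobin, immunoglobulin, Xist and Tsix genes and markers of other classes; members of 22 gene lists were named as well. Members, lists and markers were chosen with earlier results of these data known. Some items the rules would name are not reported here. Every gene that is named outside these rules was chosen after its values were seen.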

Additional observations from a re-analysis of the deposited data

Results flagged for a closer look

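Among the named genes and list members, the following had ratios past the fold in opposite directions with and without the drug, with both counting intervals off 0. With 1 library per condition the difference between the comparisons was not tested. Over all genes tested in both, whatever their intervals, 4 of 1777 in monocytes and 4 of 1337 in neutrophils were opposite. In T and NK cells 1 of 521 and in dendritic cells 6 of 407 were. Those past the fold in the same direction were 6, 6, 6 and 4. Whether the opposite genes exceed the number that unrelated comparisons would give was not tested. In monocytes, the log2 ratio of Ero1l, an oxidoreductase of the endoplasmic reticulum, was -0.62 for combination over IACS-70654 and 0.69 for anti-PD-1 over vehicle. The former was -0.21 (-0.74 to 0.32) without the highest cell in each library, with 29 of 90 IACS-70654 UMIs in 1 cell. Spp1 in monocytes had 0.54 and -0.55. In neutrophils, the monocyte chemokine Ccl2 had -0.84 and 0.92, with 27 of 68 IACS-70654 UMIs and 25 of 85 anti-PD-1 UMIs in 1 cell each, and the former was -0.49 (-1.20 to 0.21) without the highest cells. In the same class, the glycogen-targeting phosphatase subunit Ppp1r3b had -0.81 and 0.54, and the cytokine Tnf had 0.59 and -0.58. In T and NK cells, Klf2, a transcription factor of quiescent T cells, had 0.57 and -0.59. Ccl5 in dendritic cells had -0.86 and 2.74. The latter came from 32 vehicle and 35 anti-PD-1 cells, fewer than the 50 per library required of a class in the main comparison.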

How the results depend on the processing

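No paired analysis was possible because each tumor condition has 1 library. Of the repeats of a share, count or list median under another setting, 382 were labeled as stayed, 41 as moved and 1 as reversed. Stayed means within the half-width of the counting interval, or within 1.5 times a count. For a list median, that half-width was the median over its single genes, not an interval of the median itself. A change of sign was labeled reversed only where the main log2 ratio was past the fold, so some medians labeled moved also changed sign. TMM scaling gave 125 of the 382, with shifts of 0.078 at most. For single genes, 348 stayed, 49 moved and 1 reversed. The settings without the highest cell of each gene, without Il17a cells and with cells other than tumor cells as the denominator were chosen after seeing the data. The log2 ratio of the macrophage share was -0.061 with immune cells and -0.075 with cells other than tumor cells as the denominator. Thinning and the UMI minimum also change how many genes are tested. The following counts of genes past the fold are therefore not comparable as shares between those settings. Genes past the fold, at 100 UMIs, were 324 in tumor cells (145 with cells thinned to 1000 UMIs, 591 at 50 UMIs, 143 at 200 UMIs, 27 past a log2 ratio of 1), 195 in macrophages (468, 70 and 9 at 50 UMIs, 200 UMIs and a ratio of 1), 200 in monocytes (thinned 49; then 590, 53 and 8), 105 in neutrophils (thinned 43; then 362, 23 and 2), 75 in T and NK cells (thinned 11; then 287, 15 and 10) and 140 in dendritic cells (thinned 20; then 476, 36 and 11). Thinned to 1000 UMIs, list medians were -0.19 for S phase in tumor cells (1 gene left), 0.042 for alternatively activated genes, 0.033 for chemokines and -0.21 for S phase (5 genes) in macrophages, -0.22 for MHC class II in monocytes, 0.085 for chemokines in neutrophils and -0.36 for chemokines in dendritic cells (2 genes). With at least 5 list genes needed to assign a class, MHC class II was at 0.00497 in tumor cells, 0.081 in neutrophils and -0.21 in dendritic cells, chemokines at 0.11 in neutrophils, inflammatory genes at -1.17 and AY036118 at -0.67 in dendritic cells. Chemokines in neutrophils were at 0.040 at 50 UMIs and 0.35 at 200 UMIs, interferon gamma-inducible genes in neutrophils at -0.66 at 200 UMIs (1 gene), and MHC class II in neutrophils at 1.75 without the highest cells. TMM scaling gave -0.22 for MHC class II in macrophages, anti-PD-1 over vehicle. Some single genes moved but stayed past the fold in the same direction, beside those given above. With cells thinned to 1000 UMIs, they were Tmprss11d (3.07), Cryab (1.83), Rrm2 (1.78) and Adal (-1.95) in tumor cells. In macrophages they were Nbea (1.82), Mtus2 (-4.16), Chic1 (-2.23) and Cryab (-1.43), and in monocytes Cd274 (1.85), Arl3 (2.79), Arhgap25 (-0.61) and Susd3 (-1.95). In neutrophils they were Ccl4 (1.02), H2-Ab1 (1.48) and Ppp1r3b (-1.34). Il17a (1.62) in T and NK cells and Ccr7 (-1.34) in dendritic cells did so too. Without the highest cells, H2-Ab1 (2.145) in neutrophils and Mgl2 (1.45), Il12b (-2.38) and Ccr7 (-2.34) in dendritic cells did so. With 5 list genes, they were Ccl4 (0.69) in neutrophils and Cd74 (-0.71) and Cst3 (-0.55) in T and NK cells. The S-phase result in tumor cells therefore could not be examined at 1000 UMIs, and the MHC class II results in tumor cells, neutrophils and dendritic cells depend on how cells were assigned. Depth limits what can be said of T and NK cells, neutrophils and dendritic cells, where a single cell held most UMIs of some genes.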
